A study of Mus musculus with 8 samples.

Results

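Ribosomal protein mRNAs were measured in RAW264.7 cells, a mouse macrophage-like line, in which LPS, the endotoxin of Gram-negative bacteria, acts through the receptor TLR4. The genes were taken by symbol from the annotation of the array: every gene named Rpl or Rps followed by a number, with an optional letter a, x, y or l, together with the stalk genes Rplp0 to Rplp2. S6 kinases and pseudogenes with the suffix -ps were left out by this rule. The array held 44 such genes on 53 probes, among 19084 named genes on 26423 probes. By symbol, 15 of the 44 genes belong to the small (40S) subunit and 29 to the large (60S) subunit. RefSeq lists 42 of them as protein-coding and 2, Rpl6l and Rps4l, as pseudogenes that the rule did not leave out.

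The study had 4 groups of 2 arrays each: shDab2 LPS, shLuc LPS, shDab2 PBS and shLuc PBS. The shDab2 cells stably expressed a short hairpin RNA against Dab2, an endocytic adaptor, and the shLuc cells one against luciferase, which mouse cells lack. Both lines had been infected with lentivirus and selected with puromycin, and both were exposed for 6 h either to LPS at 100 ng/ml or to the vehicle PBS. The shDab2 arrays came from the line made with hairpin B alone, so an effect of Dab2 loss and an effect of that hairpin or of that line cannot be told apart, and nothing in the labels says that the 2 arrays of a group came from separate cultures. The p-values then measure only the spread between arrays.

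The cytosolic ribosome joins a small subunit, which reads the mRNA, to a large subunit, which forms the peptide bond. Its proteins are made in near equal numbers and are among the most abundant products of a growing cell. In vertebrates most of their mRNAs belong to the TOP class, which starts with a cytosine followed by a run of pyrimidines and is translated under the control of the kinase mTORC1, so that the amount of ribosomal protein made is set at translation as well as by the amount of mRNA. Arrays read the amount of mRNA only. A shortage or an excess of single ribosomal proteins is known to act on p53 through Mdm2.

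The starts of several members are shown because the TOP class is defined there. RefSeq start sites were given for 37 of the 44 genes, as 47 windows on GRCm38.p6. Each line below gives 15 bases before and 15 bases from the annotated start, 5′ to 3′ on the gene's strand, with the longest run of C and T in capitals. The genes are 11 of those named in the comparisons that follow, picked to show both long and short runs.
Rpl15, chr14:18270972-18271001, minus strand: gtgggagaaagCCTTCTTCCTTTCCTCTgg
Rpl27a, chr7:109519180-109519209, plus strand: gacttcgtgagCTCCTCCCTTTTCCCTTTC
Rps15a, chr7:118116133-118116162, minus strand: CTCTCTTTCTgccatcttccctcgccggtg
Rps27, chr3:90213634-90213663, minus strand: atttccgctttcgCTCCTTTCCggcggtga
Rps27l, chr9:66946071-66946100, plus strand: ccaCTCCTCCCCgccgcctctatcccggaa
Rps25, chr9:44407699-44407728, plus strand: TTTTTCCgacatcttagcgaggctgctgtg
Rpl22, chr4:152324421-152324450, plus strand: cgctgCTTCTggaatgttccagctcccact
Rplp0, chr5:115559452-115559481, plus strand: gTCTTCgggtttcgaggaccgcctggttct
Rps13, chr7:116334176-116334205, minus strand: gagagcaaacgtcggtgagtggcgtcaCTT
Rps3, chr7:99483695-99483724, minus strand: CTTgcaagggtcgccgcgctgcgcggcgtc
Rpl24, chr16:55966260-55966289, plus strand: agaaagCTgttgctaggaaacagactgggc
Rpl27a, Rpl15, Rps15a, Rps27 and the first of 2 starts of Rps27l have runs of 19, 17, 10, 9 and 9 bases, and Rps13, Rps3 and Rpl24 have runs of only 3, 3 and 2. A run of at least 8 was found in 34.0% of the ribosomal protein windows and in 12.0% of the 32851 windows of all genes. In the 300 bases from 250 before to 50 after the start, searched on both strands, the ETS core CCGGAAG was in 38.3% of the ribosomal protein promoters and in 8.9% of all promoters, and the YY1 motif AAGATGGC in 14.9% and 2.7%. The TATAAA box was in 6.4% of the ribosomal protein promoters and in 13.6% of all, and the E-box CACGTG, which Myc can bind, in 12.8% and 7.2%. An annotated start can lie some bases away from the start used in these cells, so a short run does not show that a gene is outside the TOP class. A long run does not show that a gene is in it. In Rps15a and Rps27l, for example, the run lies wholly before the annotated start.

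The deposited intensities had their background subtracted and were not normalized between arrays. They were quantile-normalized here, an offset of 50 was added, and all log2 fold changes are on the log2(intensity + 50) scale, which understates the change of dim probes. A call is an adjusted p under 0.05 in a limma fit over all 26423 probes and all 8 arrays. On average over the arrays, 38 members reached a normalized intensity of 50. Rps29, Rps4l, Rpl6l, Rpl39l and Rpl37 stayed under 50 on every array, so that they could hardly be called. No member came near the top of the scanner range, the highest deposited intensity of a member being 46871. Each gene is represented by its brightest probe. Ribosomal protein genes have many processed pseudogenes, and how far a probe also reads their transcripts was not tested.

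The target of the knockdown, Dab2, had a normalized intensity of 39.1 and 34.8 in shDab2 LPS and 52.2 and 72.4 in shLuc LPS, and of 59.1 and 76.0 in shDab2 PBS and 91.1 and 88.1 in shLuc PBS. The shDab2 arrays were lower than the shLuc arrays in both pairs, without overlap, but the probe is dim and neither difference was called (log2 fold change -0.36 with LPS, adjusted p = 0.0577, and -0.25 with PBS, adjusted p = 0.26). With this probe the knockdown was therefore not called at the mRNA level in the main fit, and the 2 lines are named here by their labels. The difference with LPS was called under some other settings, given in the last section. At the protein level the authors report, by Western blot, that Dab2 was strongly reduced in the line with hairpin B. Of the macrophage markers, all 7 measured were at or above 50 on average, whereas 0 of 6 fibroblast and 0 of 4 epithelial markers were. Of 6 lymphocyte markers 2 were, Cd3e and Cd79a, both dim. Cd79a was called higher with LPS in shDab2 cells (log2 fold change 0.54, adjusted p = 0.00818). The macrophage markers themselves differed between the lines, 3 being higher and 2 lower in shDab2 than in shLuc cells with LPS and 2 higher and 1 lower with PBS. Adgre1, the gene of the F4/80 antigen, was higher by 2.08 on the log2 scale with LPS and 1.46 with PBS, and Mpeg1, a pore-forming protein of macrophages, by 1.07 and 0.74, while Csf1r, the receptor of the growth factor CSF-1, had -0.64 with LPS (adjusted p = 9.84e-05) and -0.24 with PBS (adjusted p = 0.0609). The summed intensity of the 7 was 68695.1 to 75645.1 in shDab2 LPS and 53323.5 to 86700.7 in shLuc LPS, and 59468.4 to 59654.2 in shDab2 PBS and 63193.6 to 65103.9 in shLuc PBS. Their part in the differences of the ribosomal protein genes was not tested. The arrays had medians of 20 to 37 before normalization, and 42.12 to 42.27% of their probes reached 50 after it.

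Every ribosomal protein gene called between the lines was higher in shDab2 than in shLuc cells. With LPS, 19 of the 44 genes were called higher in shDab2 cells and 0 lower, and 25 were not called. Over all genes tested, 9.07% were called higher and 11.6% lower in the same comparison, and over the 9505 genes with a mean of at least 50, 16.4% and 21.9%. The differences were small: the median log2 fold change of the members was 0.22, against -0.01 over all genes, and 40 of 44 values were above 0. At an unadjusted p under 0.05, limma counted 23 members higher and 0 lower. The arrays of the 2 lines did not overlap for 31 members, all of them higher in shDab2 cells, and over all genes 24.7% were without overlap in that direction and 28.2% in the other.

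Calls were made in both subunits, for 6 of 15 genes of the 40S and 13 of 29 genes of the 60S subunit. The 18 brightest members, with a mean of 500 or more, held 11 of the calls (all genes of that level, 19.8% higher), and the 20 members between 50 and 500 held 8 (all genes, 13.4% higher). The members made up 1.017 and 1.006% of the summed deposited intensity of the shDab2 LPS arrays and 0.865 and 0.873% of that of the shLuc LPS arrays.

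With PBS the same direction was seen with fewer calls. In shDab2 PBS against shLuc PBS, 9 of the 44 genes were called higher, 0 lower and 35 not at all, where 5.65% and 6.4% of all genes were called. The median log2 fold change was 0.14, against 0.00 over all genes, and 34 of 44 values were above 0. At an unadjusted p under 0.05, limma counted 15 members higher and 0 lower. Arrays did not overlap for 29 members higher and 1 lower in shDab2 cells, against 25.1% and 26.5% of all genes. The members' share of the summed intensity was 1.062 and 1.091% in shDab2 PBS and 0.964 and 1.007% in shLuc PBS.

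Of the 19 genes called with LPS, 8 were also called with PBS (42.1% of the 19 and 88.9% of the 9): Rpl15, Rpl22, Rplp0, Rps13, Rps25, Rps21, Rpl37a and Rpl27a. Over the genes with a mean of at least 50, the shares called higher in both were 37.6% of those with LPS and 57.3% of those with PBS. Rpl23, which binds Mdm2 when free of the ribosome, was called with PBS only (log2 fold change 0.21, adjusted p = 0.0459, and 0.03 with LPS), and its PBS call held under 2 of 4 normalizations. These 2 comparisons have no arrays in common. Across the 44 genes their log2 fold changes had the same sign in 32, or 72.7%, against 70.4% of the genes with a mean of at least 50.

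**Figure D1:**
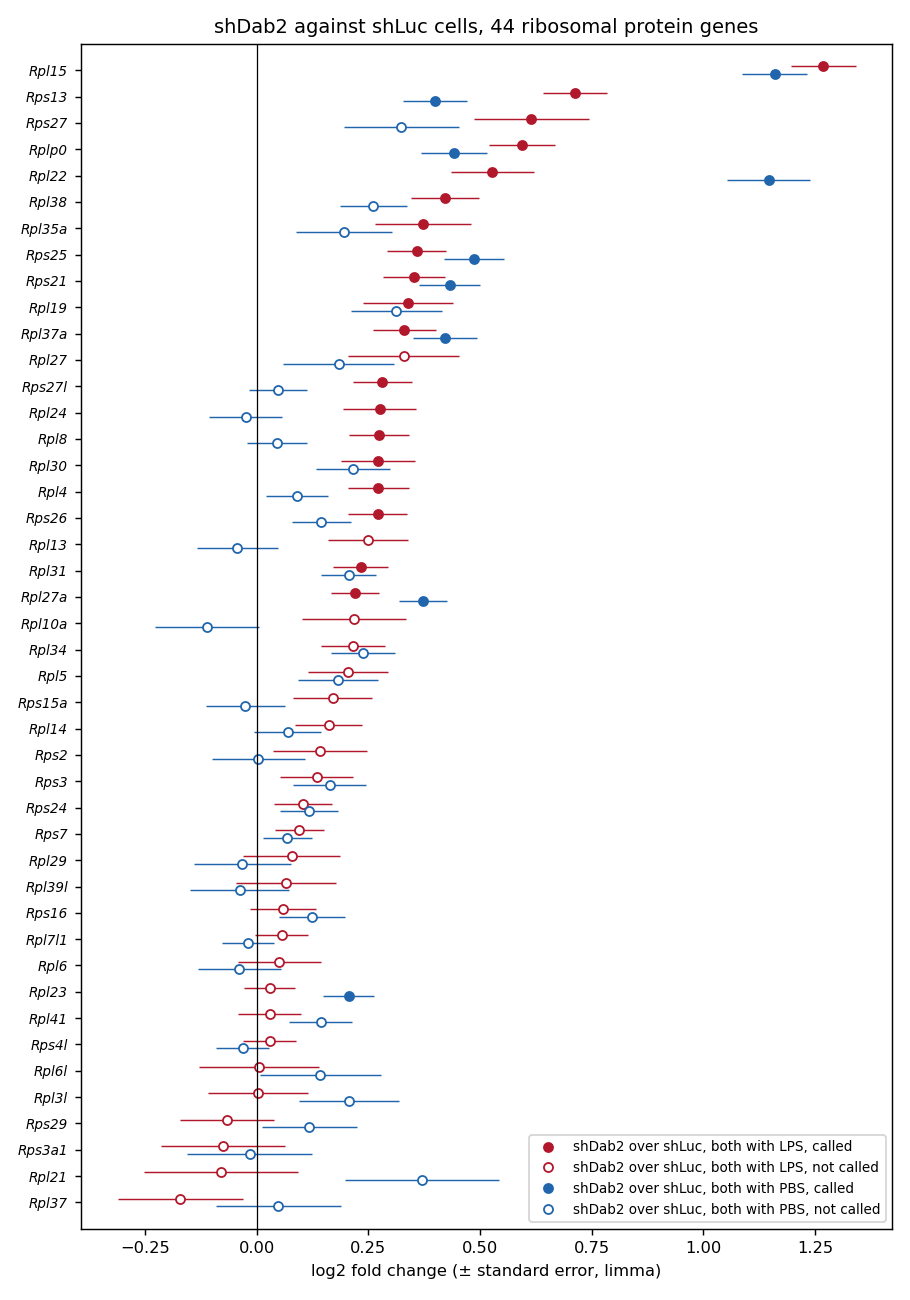
Log2 fold changes of shDab2 over shLuc cells for the 44 ribosomal protein genes (one row a gene, sorted by the LPS comparison), with LPS in red and with PBS in blue. Bars are the standard errors of the limma fit and filled points are called. The 19 filled red and 9 filled blue points all lie right of 0, and Rpl15 and Rpl22 lie apart from the others.

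**Figure D2:**
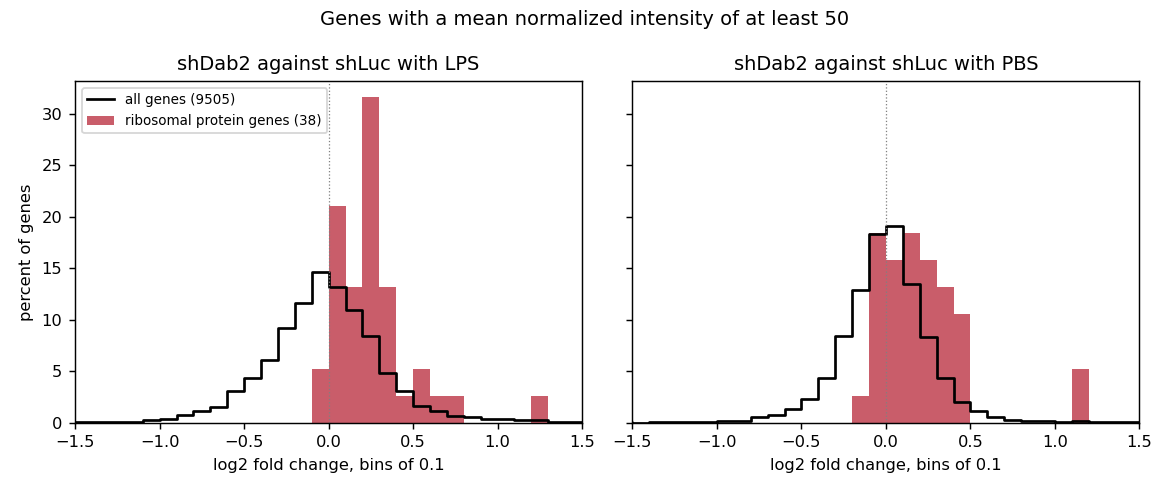
Share of genes (percent) in bins of log2 fold change of shDab2 over shLuc cells, with LPS on the left and with PBS on the right, for the 38 ribosomal protein genes and the 9505 genes with a mean normalized intensity of at least 50. The bars of the ribosomal protein genes lie to the right of the outline of all genes, with medians of 0.23 and 0.17.

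No member was called lower in shDab2 cells under any of the 4 normalizations. With cyclic loess, scaling to a common 75th percentile and no normalization, 17, 18 and 26 members were called higher with LPS and 0 lower, and 17 genes were called under all 4 settings. Rpl19 and Rpl24, among the 19, were not. With PBS the counts were 8, 9 and 32 higher and 0 lower. Without normalization the median of all probes itself moved by 0.11 in that comparison, and the members' median of 0.40 stood 0.29 above it. The number of calls with LPS depended on single arrays, falling to 10 without shDab2 LPS replicate 2 and to 11 without shLuc LPS replicate 2, with 0 lower in either. With the t-test that the methods name, run on the same values, 14 members passed its threshold unadjusted with LPS and 12 with PBS, all higher in shDab2 cells, and after Benjamini-Hochberg adjustment 0 members passed in either comparison.

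Rpl15, a core protein of the 60S subunit, showed the largest difference between the lines. It had 479.7 and 489.1 in shDab2 LPS and 167.1 and 176.8 in shLuc LPS, and 781.8 and 875.9 in shDab2 PBS and 330.7 and 355.5 in shLuc PBS. Every shDab2 array was above every shLuc array, whether treated or not. The log2 fold change of shDab2 over shLuc was 1.27 ± 0.07 with LPS (SE, adjusted p = 8.75e-07) and 1.16 ± 0.07 with PBS (adjusted p = 4.13e-06).

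Rpl22, a 60S protein that also binds RNA outside the ribosome and is needed in mice for the development of certain T cells, was the member with the largest response to LPS. Its intensity was 89.0 and 115.2 in shDab2 LPS and 431.4 and 419.2 in shDab2 PBS, and 53.2 and 57.0 in shLuc LPS and 167.1 and 162.5 in shLuc PBS. It fell with LPS in both lines and was higher in shDab2 cells with either treatment, and none of these pairs of groups overlapped. The log2 fold change of LPS over PBS was -1.65 ± 0.09 in shDab2 cells (SE, adjusted p = 1.24e-07) and -1.03 ± 0.09 in shLuc cells (adjusted p = 9.71e-06), and that of shDab2 over shLuc 0.53 ± 0.09 with LPS (adjusted p = 0.00228) and 1.15 ± 0.09 with PBS (adjusted p = 2.81e-05). The paper took a log2 ratio of 1.5 as its cut-off, and its lists hold Rpl22 as down-regulated by LPS in both lines. On the offset scale used here, which understates the change of dim probes, the fall in shLuc cells did not reach it. On this scale the fall in shDab2 cells was the 1 change of a member past 1.5 in the 4 comparisons. Of all genes, 1.6% were higher and 0.734% lower by as much with LPS in shDab2 cells and 0.912% and 0.288% in shLuc cells, and in shDab2 against shLuc cells 0.309% and 0.0734% with LPS and 0.121% and 0.115% with PBS.

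Rpl22 was also the 1 member called in the difference between the LPS responses of the 2 lines, where 2.72% of all genes were called higher and 3.08% lower (5.1% and 6% of the genes with a mean of at least 50). Its fall was deeper by 0.62 ± 0.13 on the log2 scale in shDab2 cells (SE, adjusted p = 0.0219). That call was lost with an offset of 16 (adjusted p = 0.0889) and in 6 of the 8 fits that left out an array, all but those without shLuc LPS replicate 1 and without shDab2 LPS replicate 2, with adjusted p between 0.00837 and 0.0902 over the 8. For the other 43 members no difference in response was called. For Rpl15 it was 0.11, with a 95% interval of -0.12 to 0.34.

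Rps13, a 40S protein, had 299.4 and 289.0 in shDab2 LPS and 158.6 and 161.6 in shLuc LPS, and 200.8 and 201.4 in shDab2 PBS and 137.2 and 143.6 in shLuc PBS. It was again highest in shDab2 cells (log2 fold change 0.71 ± 0.07 with LPS, adjusted p = 4.67e-05, and 0.40 ± 0.07 with PBS, adjusted p = 0.00492). Unlike Rpl15 and Rpl22 it rose with LPS in shDab2 cells (0.45 ± 0.07, adjusted p = 0.00048, but 0.05 and adjusted p = 0.716 with no normalization), while the value in shLuc cells was 0.14 ± 0.07 (adjusted p = 0.216). The difference between these responses was 0.31 and was not called (adjusted p = 0.132).

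Rplp0, the base of the stalk that recruits elongation factors and a gene often taken as a reference in RT-qPCR, had 2625.4 and 2996.4 in shDab2 LPS, 1831.4 and 1850.2 in shLuc LPS, 3220.0 and 3573.2 in shDab2 PBS and 2558.8 and 2409.7 in shLuc PBS. Each shDab2 group was above the shLuc group of the same treatment, and each LPS group was below the PBS group of the same line. Between the lines the log2 fold change was 0.59 ± 0.07 with LPS (adjusted p = 0.000203) and 0.44 ± 0.07 with PBS (adjusted p = 0.00302), and between treatments -0.27 ± 0.07 in shDab2 cells (adjusted p = 0.0173) and -0.42 ± 0.07 in shLuc cells (adjusted p = 0.0013). The fall in shDab2 cells was lost without shDab2 PBS replicate 2 or shDab2 LPS replicate 1, with cyclic loess (-0.14) and at a common 75th percentile (-0.04). The other stalk genes were not among the members measured.

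The further genes called in both comparisons of the lines had smaller differences. Rps25, which some viral internal ribosome entry sites need, was higher in shDab2 cells by 0.36 on the log2 scale with LPS and 0.49 with PBS, and Rps21 by 0.35 and 0.43. Rpl37a was higher by 0.33 and 0.42 and Rpl27a by 0.22 and 0.37. Rpl38, known in mice for its part in the translation of Hox mRNAs, was higher by 0.42 with LPS (adjusted p = 0.00239), and with PBS its value was 0.26 (adjusted p = 0.0532). The call of Rpl27a with LPS held for 1 of its 2 probes, the other having 0.05.

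**Figure D3:**
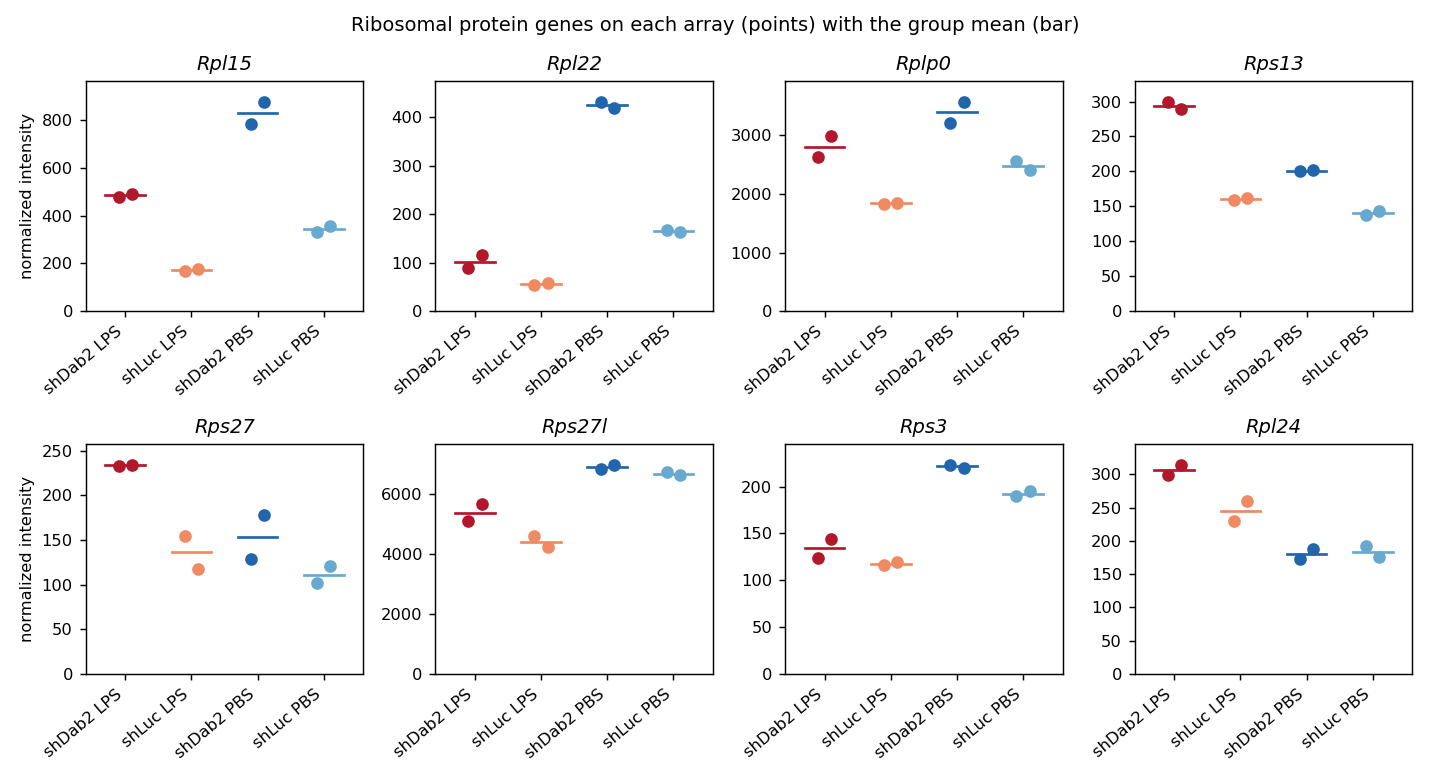
Normalized intensity of 8 ribosomal protein genes on each of the 8 arrays, as points, with the mean of the 2 arrays of a group as a bar. Each panel has its own axis from 0. Rpl15 and Rpl22 are high in shDab2 PBS and low in shLuc LPS, Rps13 and Rps27 are highest in shDab2 LPS, and Rps3 follows the treatment.

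LPS moved single ribosomal protein genes in both directions. In shDab2 cells, 8 members rose and 12 fell with LPS, where 13.4% of all genes were called higher and 18% lower. In shLuc cells, 4 rose and 11 fell, where 11.6% and 15.7% of all genes were called. These shares lie near or below those of the genes with a mean of at least 50 (24.6% and 33.4% in shDab2 cells, 21.5% and 28.5% in shLuc cells). The median log2 fold change of the members was 0.01 in shDab2 cells and -0.04 in shLuc cells. Arrays did not overlap for 18 members higher and 19 lower with LPS in shDab2 cells (all genes, 28.5% and 31.6%) and for 12 and 17 in shLuc cells (27.6% and 29.6%).

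The balance of rises and falls changed with the normalization. In shDab2 cells the count was 13 higher and 9 lower with cyclic loess, 15 and 4 with a common 75th percentile, and 1 and 22 with no normalization. In shLuc cells the counts were 5 and 10, 9 and 7, and 0 and 16. Under all 4 settings the fall with LPS was called in both lines for 3 genes, Rpl22, Rpl15 and Rps3. Rpl27a fell under all 4 in shDab2 cells and Rplp0, Rpl38, Rpl8 and Rps27l in shLuc cells, and Rpl24 was the 1 gene that rose under all 4, in shDab2 cells. Rpl4 in shDab2 cells was called lower without normalization and higher at a common 75th percentile. Single arrays changed the counts as well. The 4 rises in shLuc cells became 2, 0, 1 and 2 without shLuc PBS replicate 1, shLuc PBS replicate 2, shLuc LPS replicate 1 and shLuc LPS replicate 2, and the 12 falls in shDab2 cells became 7 without shDab2 PBS replicate 2.

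**Figure D4:**
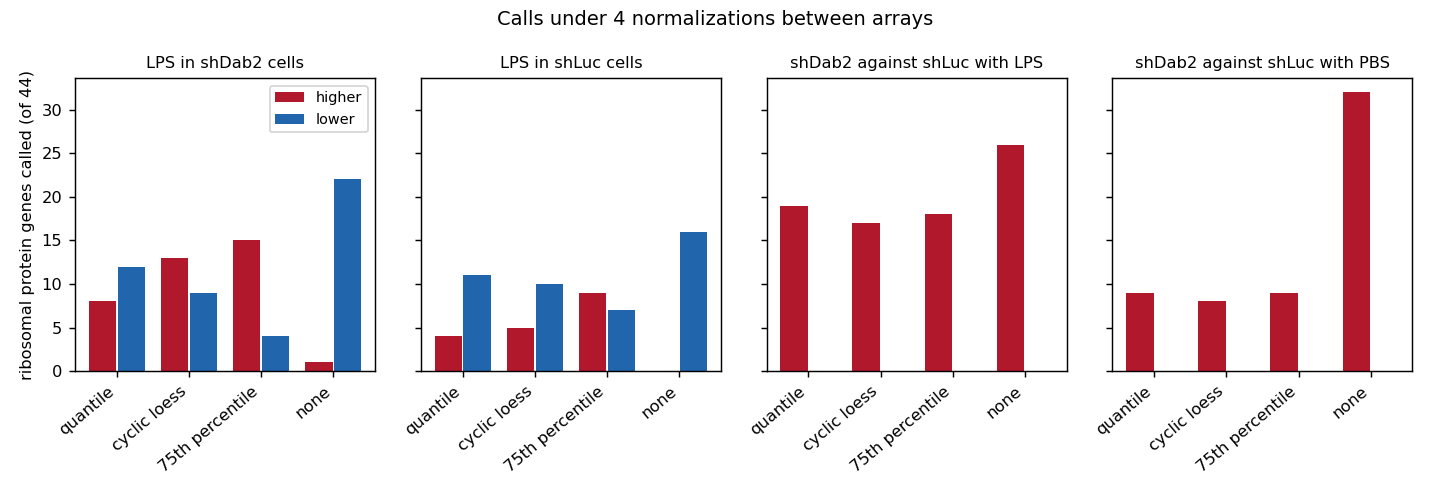
Number of ribosomal protein genes called higher (red) and lower (blue), of 44, in each of 4 comparisons under 4 ways of normalizing between arrays. The 2 LPS comparisons on the left change their balance, while the comparisons of shDab2 with shLuc cells on the right have 0 genes called lower under every setting.

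The falls shared by both lines under quantile normalization were those of 9 genes: Rpl22, Rpl15, Rps3, Rps27l, Rplp0, Rpl8, Rps26, Rpl27a and Rpl23. In shDab2 cells the values of Rpl8 and Rps26 turned positive at a common 75th percentile, without a call. Rps3, a 40S protein at the mRNA entry site that in human cells also binds NF-kB p65, had 124.2 and 143.6 in shDab2 LPS and 223.5 and 219.9 in shDab2 PBS, and 115.8 and 119.0 in shLuc LPS and 189.8 and 195.5 in shLuc PBS. It fell to a like extent in both lines (log2 fold change -0.56 ± 0.08, adjusted p = 0.000232, in shDab2 cells and -0.54 ± 0.08, adjusted p = 0.000481, in shLuc cells). The difference between the responses was -0.03, with a 95% interval of -0.28 to 0.22. Between the lines Rps3 was not called, with 0.13 with LPS and 0.16 with PBS.

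Of the rises, 4 were called in both lines: Rpl24, Rps15a, Rpl29 and Rps16. Rpl24, a 60S protein whose loss of a copy gives the belly spot and tail mouse, had 298.5 and 314.8 in shDab2 LPS and 172.1 and 187.2 in shDab2 PBS, and 230.4 and 259.5 in shLuc LPS and 191.6 and 175.5 in shLuc PBS. The LPS arrays were above the PBS arrays of the same line without overlap (0.64 ± 0.08, adjusted p = 9.43e-05, in shDab2 cells and 0.34 ± 0.08, adjusted p = 0.0106, in shLuc cells). The call in shLuc cells was lost without shLuc PBS replicate 2 (adjusted p = 0.0878) and without shLuc LPS replicate 2 (adjusted p = 0.0947). Rps16 turned negative in shDab2 cells without normalization (-0.15). Rps15a rose by 0.53 in shDab2 and 0.34 in shLuc cells, and its other probe, under 50 on every array, gave 0.02 and 0.09. With no normalization Rps15a had 0.15 and 0.12 and was called in neither line. In shLuc cells the call of Rps15a was lost without any 1 of the 4 shLuc arrays (adjusted p from 0.052 to 0.101), and those of Rpl29 and Rps16 without shLuc PBS replicate 1, shLuc PBS replicate 2 or shLuc LPS replicate 1. Under quantile normalization all rises were among members with a mean between 50 and 500, 8 of 20 in shDab2 cells and 4 of 20 in shLuc cells. Of the 18 brighter members, 0 rose and 8 fell in each line under that setting (all genes of that level, 27.7% higher and 39% lower in shDab2 cells and 26.4% and 33.2% in shLuc cells). This split changed with the normalization. In shDab2 cells the brighter members Rpl30, Rps7, Rps24, Rpl34 and Rpl7l1 were each called higher with LPS under 2 of the 4 settings.

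The responses of the 2 lines, which share no arrays, ran alike over the members. Log2 fold changes had the same sign for 39 of 44 genes (Pearson's r = 0.885, Spearman's rho = 0.871 across genes, which are not independent replicates), against 83.3% of all genes with a mean of at least 50 (r = 0.886). No member was called in opposite directions. Of the 8 rises and 12 falls in shDab2 cells, 4 and 9 were also called in shLuc cells. Over the genes with a mean of at least 50, these counts were 1644 of 2337 rises and 2368 of 3172 falls.

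**Figure D5:**
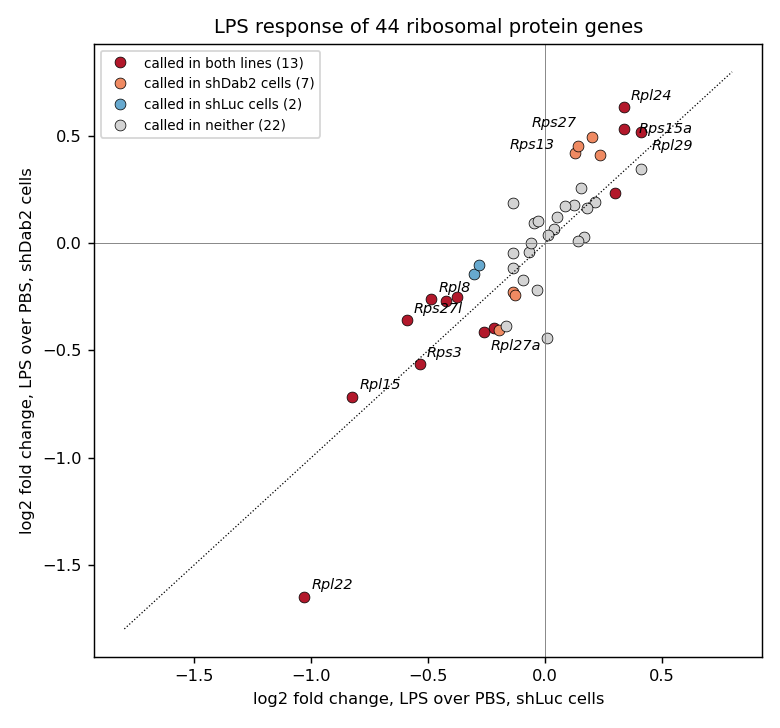
Log2 fold change of LPS over PBS in shDab2 cells (vertical axis) against shLuc cells (horizontal axis) for the 44 ribosomal protein genes, coloured by where the change was called. The dotted line marks equal responses. Rpl22 lies below the line at -1.65 and -1.03, Rpl15 and Rps3 lie close to it, and most points gather around 0.

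Some members have a paralog among them or stand for a special ribosome. Rps27l, the paralog of Rps27 and a known p53 target, had 5093.1 and 5688.0 in shDab2 LPS and 6840.7 and 6992.2 in shDab2 PBS, and 4589.9 and 4254.9 in shLuc LPS and 6736.9 and 6643.6 in shLuc PBS. It fell with LPS in both lines, by 0.36 (adjusted p = 0.00135) in shDab2 cells and by 0.59 (adjusted p = 4.53e-05) in shLuc cells. At a common 75th percentile the fall in shDab2 cells was -0.07 and was not called (adjusted p = 0.553). Rps27 had 233.0 and 234.6 in shDab2 LPS and 128.5 and 177.6 in shDab2 PBS, and 154.6 and 117.9 in shLuc LPS and 101.8 and 120.8 in shLuc PBS.

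In shDab2 cells Rps27 rose with LPS under quantile normalization (0.49 ± 0.13, adjusted p = 0.0132). That call was lost without shDab2 PBS replicate 1 (adjusted p = 0.143), shDab2 LPS replicate 1 (0.0576) or shDab2 LPS replicate 2 (0.0583), and with no normalization (0.602). In shLuc cells the value was 0.20 and the arrays overlapped. Both paralogs were higher in shDab2 LPS than in shLuc LPS, Rps27 by 0.61 and Rps27l by 0.28. Without shLuc LPS replicate 2 neither of these was called, nor was Rps27l without shDab2 LPS replicate 2. Rpl3l, the muscle paralog of Rpl3, was dim (43.8 to 89.9 over the arrays) and was called lower with LPS in shDab2 cells for 1 of its 3 probes (-0.40), a call lost without shDab2 PBS replicate 1, shDab2 PBS replicate 2 or shDab2 LPS replicate 2. Rpl39l, a paralog known from mouse testis, stayed under 50, and Rpl7l1 was not called in any comparison under quantile normalization.

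Rpl5, which with the 5S ribosomal RNA binds Mdm2, had 222.6 and 272.6 in shDab2 LPS, 204.2 and 210.6 in shLuc LPS, 257.8 and 285.0 in shDab2 PBS and 229.8 and 236.2 in shLuc PBS. The shDab2 arrays lay above the shLuc arrays under either treatment, but the differences of 0.20 with LPS and 0.18 with PBS were not called. Under quantile normalization and by their brightest probe, 27 of the 44 members were called in at least 1 comparison and 17 in none. Of those 17, 11 had a mean of at least 50: Rpl5, Rpl6, Rpl7l1, Rpl10a, Rpl14, Rpl21, Rpl34, Rps2, Rps3a1, Rps7 and Rps24. A second probe of Rpl21, under 50 on every array, was called lower with LPS in shDab2 cells (-0.57, adjusted p = 0.00546). Rpl34 is an example of a gene with a long pyrimidine run, 18 bases around 1 of its 2 annotated starts, and no call under quantile normalization. Under 2 of the 4 normalizations it was called higher with LPS in both lines. It was called higher in shDab2 than in shLuc cells under 1 of the 4, with either treatment.

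The members were also counted by the longest pyrimidine run in the 30 bases around their annotated starts, wherever in the window it lay. Of the 15 members with a run of at least 8 in such a window, 10 were called higher in shDab2 LPS than in shLuc LPS. Of the 22 without, 7 were. With PBS the counts were 2 of 15 and 7 of 22. With LPS in shDab2 cells, 4 of the 15 rose and 4 fell, and of the 22, 3 rose and 7 fell. In shLuc cells 1 of the 15 rose and 6 fell, and of the 22, 2 rose and 4 fell. Of all genes with a mean of at least 50, 16.4% were higher in shDab2 cells with LPS and 10.8% with PBS. With LPS, 24.6% of them rose and 33.4% fell in shDab2 cells, and 21.5% and 28.5% in shLuc cells. These counts are a description, and no test of them was run.

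Other gene groups of the translation machinery were read in the same fit. Of 17 measured genes of the TOP class outside the ribosome, 6 were higher and 1 lower in shDab2 LPS than in shLuc LPS, with a median of 0.23, and 3 were higher and 0 lower with PBS, with a median of 0.11. Eif3k, a subunit of initiation factor eIF3, was higher by 0.45 (adjusted p = 0.00228) and Vim, an intermediate filament gene, by 0.40 (adjusted p = 0.00109) with LPS, and Eif3f, another eIF3 subunit, had -0.22 (adjusted p = 0.0361), a fall called under 1 of the 4 normalizations. Eif3k and Vim were called higher under all 4. Elongation factor Eef2 had -0.07 and was not called. In response to LPS, 1 of the 17 rose and 5 fell in shDab2 cells and 1 and 8 in shLuc cells. The shares of all genes with a mean of at least 50 were 24.6% and 33.4% in shDab2 cells and 21.5% and 28.5% in shLuc cells. At a common 75th percentile the list had 4 rises and 1 fall in shDab2 cells and 2 and 0 in shLuc cells.

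Of 39 nucleolar factors of ribosome assembly, 2 were higher and 9 lower in shDab2 LPS than in shLuc LPS, with a median of 0.02, and 2 and 7 with PBS, with a median of -0.09. Of all genes with a mean of at least 50, 16.4% were higher and 21.9% lower with LPS and 10.8% and 12.2% with PBS. At a common 75th percentile the counts were 3 and 3 with LPS and 0 and 9 with PBS, and without normalization they were 10 and 0 with LPS and 16 and 1 with PBS. Nucleolin (Ncl), which acts in the first steps of ribosomal RNA processing, was lower in shDab2 cells, at -0.38 with LPS (adjusted p = 0.00244) and -0.27 with PBS (adjusted p = 0.0296), differences called under 2 and 1 of the 4 normalizations. With LPS, 19 of the list rose and 3 fell in shDab2 cells and 14 and 4 in shLuc cells. Without normalization 6 rose and 14 fell in shDab2 cells and 10 and 9 in shLuc cells. Of all genes with a mean of at least 50, under quantile normalization, 24.6% rose and 33.4% fell in shDab2 cells. In shLuc cells the shares were 21.5% and 28.5%. RNA polymerase I and its factors were mixed, with 1 of 14 higher and 3 lower in shDab2 LPS than in shLuc LPS, and 4 rising and 3 falling with LPS in shDab2 cells.

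A list of 21 measured genes held mTORC1, regulators of TOP mRNAs, and Myc with its relatives. With LPS, 7 of them rose and 4 fell in shDab2 cells and 4 and 4 in shLuc cells (3 and 9, and 4 and 6, without normalization). Of all genes with a mean of at least 50, 24.6% rose and 33.4% fell in shDab2 cells and 21.5% and 28.5% in shLuc cells. Myc, an activator of ribosome biogenesis, had 1114.8 and 1145.0 in shDab2 LPS and 502.1 and 526.6 in shLuc LPS, and was under 50 on all 4 PBS arrays. Set against that level, it rose with LPS at least 22.6-fold in shDab2 cells and at least 10.3-fold in shLuc cells. It was higher in shDab2 LPS than in shLuc LPS by 1.06 on the log2 scale (adjusted p = 5.81e-05). Its relative Mycn had -0.50 in that comparison (adjusted p = 0.0013). Of the 21 genes, 3 were higher and 4 lower there, with a median of -0.10. Among all genes with a mean of at least 50, 16.4% were higher and 21.9% lower. Mtor itself fell with LPS by 0.28 in shDab2 and 0.22 in shLuc cells.

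Of 7 measured genes of Mdm2 and p53, to which free ribosomal proteins are linked, 4 were called higher and 0 lower in shDab2 than in shLuc cells with LPS and 3 and 0 with PBS, where 9.07% and 5.65% of all genes were called higher. Of the genes with a mean of at least 50, as 6 of the 7 had, 16.4% and 10.8% were called higher. Mdm4, a partner of Mdm2, had -0.27 with LPS and -0.28 with PBS and was not called. Phlda3, a p53 target, was under 50 in shLuc LPS (39.9 and 48.6) and had 116.1 and 120.1 in shDab2 LPS, at least 2.36-fold more, and its log2 fold change with PBS was 1.51. Ccng1 was higher by 0.43 with LPS and 0.82 with PBS, and Cdkn1a by 0.57 and 0.67, and these 3 genes were called under all 4 normalizations with either treatment. The part that these groups have in the differences of the ribosomal protein genes was not tested.

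Ribosomal proteins that the symbol rule missed were few on the array. Fau, made as a fusion of a ubiquitin-like protein with the 40S protein eS30, was higher in shDab2 PBS than in shLuc PBS by 0.26 (adjusted p = 0.0384), and with LPS the value was 0.11. Rpsa, the 40S laminin receptor protein, was under 50 on every array.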

How the data were processed

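RNA of 8 samples was hybridized by the authors to one-colour Cy5 Phalanx mouse OneArray chips. The deposited values are linear, background-subtracted whole-number intensities of 26423 probes, from -11 to 65470, not normalized between arrays; the methods name no normalization. A second table of the authors' group means was not used. Probe symbols came from the platform annotation (21876 probes with 1 symbol), and all 44 members matched RefSeq genes on GRCm38.p6. Precision is limited by the 2 arrays per group.

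Intensities were quantile-normalized, offset by 50 and log2-transformed, then fitted with limma 3.58.1 in R 4.3.3: 4 group means over 8 arrays, eBayes with a trend (4 residual and 6.7 prior degrees of freedom), Benjamini-Hochberg over 26423 probes. The 5 comparisons were LPS against PBS in each line, shDab2 against shLuc with each treatment, and the difference in LPS response. The script was tested on simulated data. A fold against a group under 50 is a bound set at 50.

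Members, lists and the rule for named genes were chosen with earlier results of these data known. Named were the 5 largest called rises and falls per comparison without overlap, paralogs, proteins with roles of their own, and leading genes of each list; Rpl4, Rpl19, Rpl34, Rpl38, Rpl37a, Eef2, Mtor, Ncl and further members given by count were added after their values were seen.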

Additional observations from a re-analysis of the deposited data

Results flagged for a closer look

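The LPS response of 8 genes differed between the lines by the interaction term of the limma fit, among the 44 members, the lists of ribosome-related genes and the macrophage markers. The lists given above held 17, 39, 14, 21 and 7 measured genes, and 7 macrophage markers were measured. In the same term 2.72% of all genes were called higher and 3.08% lower. Of the genes with a mean of at least 50, 5.1% and 6% were. For Rpl22 the response of shDab2 cells minus that of shLuc cells was -0.62 on the log2 scale (adjusted p = 0.0219), LPS lowering it in both. For Phlda3, a p53 target that LPS also lowered in both lines, the difference was -0.68 (adjusted p = 0.00753). Mycn, a relative of Myc, fell by 1.00 with LPS in shDab2 cells and by 0.51 in shLuc cells, a difference of -0.48 (adjusted p = 0.0368). Twistnb, a subunit of RNA polymerase I, had 640.2 and 745.2 in shDab2 LPS and 578.9 and 569.2 in shDab2 PBS, and 519.8 and 503.3 in shLuc LPS and 606.9 and 567.7 in shLuc PBS, a difference of 0.43 (adjusted p = 0.0427). The differences of Rpl22, Phlda3 and Mycn were called under all 4 normalizations and that of Twistnb under 2. Of the 7 macrophage markers, 4 differed: Adgre1 by 0.62 (adjusted p = 0.00763), Itgam, an integrin subunit, by 0.56 (adjusted p = 0.00602), Fcgr1, an Fc receptor, by 0.83 (adjusted p = 0.0113) and Cd68, a lysosomal glycoprotein, by -0.38 (adjusted p = 0.0322).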

How the results depend on the processing

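No alternative run called a ribosomal protein gene lower in shDab2 than in shLuc cells. Of 1226 values of single genes recomputed for 62 results, 1136 kept their side of the threshold, 74 fell below it and 15 passed it. The remaining 1 changed sign with a call, Rpl7l1 in shDab2 against shLuc with PBS, at 0.2331 without normalization (adjusted p = 0.0121). Changes of sign without a call in either fit were counted among the 1136. Rpl3l between the lines with LPS, for example, ran from -0.1313 to 0.1365. In members called higher and lower with LPS, shDab2 cells had 15 and 4 at a common 75th percentile, 1 and 22 without normalization, 13 higher with cyclic loess, 1 and 1 by the methods' t-test after adjustment, and 0 and 1 past a log2 ratio of 1.5. In shLuc cells these were 9 and 7 at the 75th percentile, 0 higher without normalization and 7 higher with dim probes left out. They were 0 and 1 by the adjusted t-test, and 0 and 0 past the ratio on the offset scale. The paper's list with this cut-off has Rpl22 lower there. For shDab2 against shLuc, the adjusted t-test and the ratio gave 0 higher with either treatment, and no normalization gave 32 with PBS. The difference in response had 2 members lower without normalization and 0 with an offset of 16. Leaving out an array gave 6 to 9 higher and 7 to 13 lower with LPS in shDab2 cells, 0 to 5 and 9 to 11 in shLuc cells, 10 to 17 higher in shDab2 against shLuc with LPS and 8 to 10 with PBS, and 0 to 1 lower in the difference. The cause of these changes was not tested. Median fold changes of the members ran from 0.1306 to 0.3132 with LPS and from 0.0938 to 0.4018 with PBS between the lines, and crossed 0 in both responses to LPS, from -0.1996 to 0.1335 in shDab2 and from -0.0835 to 0.0326 in shLuc cells.

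Dab2 with LPS in shDab2 cells (-0.43) was not called at the 75th percentile (-0.3695, adjusted p = 0.0563), and ran from -0.5237 to -0.3236 without an array. Dab2 with LPS in shLuc cells was called without normalization (-0.4106) and, at -0.3198, with dim probes left out, no variance trend or robust variance, and ran from -0.4555 to -0.1923. Dab2 in shDab2 against shLuc with LPS was called with an offset of 16 (-0.5542) and, at -0.3641, with dim probes left out, no variance trend, robust variance or the mean of the probes of a gene, and ran from -0.5004 to -0.2362.

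Arrays with the same replicate number did not deviate together (r from -0.089 to 0.156 over 6 pairs of groups). With the replicate block, probes called in the 5 comparisons numbered 6983, 6020, 4477, 2505 and 1170, against 7118, 6147, 4618, 2636 and 1263 without it, and members higher in shDab2 than in shLuc cells 18 with LPS and 8 with PBS. The intensity of 50, under which 6 members lay on average, limits what could be called.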
